A study of Mus musculus with 10 samples.

Results

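Open chromatin of Myc-CaP cells given oxaliplatin with interferon-γ (Oxali + IFNγ) was compared directly with that of cells given oxaliplatin alone (Oxali), to ask what IFNγ added to the drug. A region counted as Oxali + IFNγ-only when it was strong (q-value of at most 0.01) in the Oxali + IFNγ peak list and shared no base with any deposited region of the Oxali list, and as Oxali-only in the mirror case. There were 27854 Oxali + IFNγ-only regions among 169143 strong regions of that list, and 9842 Oxali-only regions among 153700. Levels were compared at 139450 merged regions that both lists held and that were strong in at least 1 of them. For scale, the strong regions of the whole series merged into 204075. Chromatin accessibility had been measured by ATAC-seq, in which a transposase inserts sequencing adapters where DNA is open. Myc-CaP is a single line from a prostate tumour that arose in a male FVB/NJ mouse carrying a Myc transgene, so every group shares that origin and that transgene. Each group had 2 libraries, taken after 48 h: untreated cells (Ctrl), 2 µM oxaliplatin, 2 µM cisplatin (Cispl), IFNγ (1000 pg in the labels, given per ml in the study's methods) and oxaliplatin with IFNγ at the same amounts. The libraries of a group had been pooled before peaks were called, so each group is 1 peak list with no replicate error, and no test against replicate spread was possible. The intervals given below cover counting error only. In such pooled cells, a site that opened in more cells and a site that opened further in each cell cannot be told apart.

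IFNγ binds a receptor made of Ifngr1 and Ifngr2 chains, whose kinases Jak1 and Jak2 start the JAK-STAT pathway. The pathway acts through GAS elements and switches on Irf1, a transcription factor that in turn binds the interferon-stimulated response element (ISRE) of antiviral, GTPase and antigen presentation genes. Oxaliplatin crosslinks DNA, and the damage response it starts includes p53 and NF-κB.

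The sequences that carry the main pattern are shown first. They are regions with a greater level with Oxali + IFNγ than with Oxali, or with no call in the Oxali list, and that held an ISRE near the summit. Each is read 5′ to 3′ from mm10 on the strand that reads GAAANNGAAA, with the match in capitals. The first 4 and the last were among the shared regions most raised over Oxali, the next 3 lay at start sites of interferon-stimulated genes, and Nlrc5, Cd274 and B2m are antigen presentation or checkpoint genes. Apol7e and Oas2 had start-site regions that the Oxali list lacked. Tbl1xr1 is shown because its match lies in a run of short repeats, with 8 matches within 100 bp of the summit.
Drosha intron, chr15:12856943-12857012, plus strand: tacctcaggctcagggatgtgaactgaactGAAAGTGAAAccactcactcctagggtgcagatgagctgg
Lrrc49 intron, chr9:60664965-60665034, plus strand: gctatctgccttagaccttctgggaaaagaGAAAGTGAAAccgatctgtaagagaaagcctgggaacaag
Ctso, intergenic, chr3:81761048-81761117, plus strand: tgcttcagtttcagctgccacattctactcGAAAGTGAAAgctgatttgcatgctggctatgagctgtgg
Inpp1 start site, chr1:52799527-52799596, plus strand: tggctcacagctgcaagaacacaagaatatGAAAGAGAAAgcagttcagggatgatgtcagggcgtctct
Rtp4 start site, chr16:23609841-23609910, plus strand: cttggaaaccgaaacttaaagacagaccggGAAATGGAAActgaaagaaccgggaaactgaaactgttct
Tgtp1 start site, chr11:48992284-48992353, minus strand: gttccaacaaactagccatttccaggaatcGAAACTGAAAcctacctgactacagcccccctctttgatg
Oasl2 start site, chr5:114897439-114897508, minus strand: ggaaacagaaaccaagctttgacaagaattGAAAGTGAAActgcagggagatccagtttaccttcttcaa
Nlrc5 start site, chr8:94434363-94434432, minus strand: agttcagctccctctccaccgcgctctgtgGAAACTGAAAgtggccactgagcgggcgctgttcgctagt
Cd274 intron, chr19:29371972-29372041, plus strand: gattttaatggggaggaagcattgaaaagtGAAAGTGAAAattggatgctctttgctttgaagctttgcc
B2m start site, chr2:122147518-122147587, plus strand: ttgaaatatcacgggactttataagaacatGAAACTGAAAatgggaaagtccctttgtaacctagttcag
Apol7e start site, chr15:77698823-77698892, minus strand: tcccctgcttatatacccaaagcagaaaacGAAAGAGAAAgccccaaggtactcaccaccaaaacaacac
Oas2 start site, chr5:120749885-120749954, plus strand: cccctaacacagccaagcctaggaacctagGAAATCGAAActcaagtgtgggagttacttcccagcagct
Tbl1xr1, intergenic, chr3:22331386-22331455, plus strand: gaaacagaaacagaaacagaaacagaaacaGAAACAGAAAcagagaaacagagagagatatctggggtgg

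IFNγ added to oxaliplatin went with more calls than it removed. The Oxali + IFNγ-only regions were 16.5% of the strong regions of their list and the Oxali-only regions 6.4% of theirs. Of the 37696 regions found in one list alone, 73.9% (95% Wilson interval 73.4 to 74.3) were therefore Oxali + IFNγ-only. The genome background, the pileup expected by chance and a measure of depth, was 12.9 for Oxali + IFNγ and 11.3 for Oxali, so the Oxali + IFNγ list had 114% of the depth. With the Oxali + IFNγ list scaled down to the depth of Oxali, the share was 71.8%. It was 64.8% when the 100000 best regions of one list were looked up among the 150000 best of the other, where 1219 and 662 regions were left. That setting also made the lists equally long, and with a q-value of at most 1e-05 alone the share was 74.6%. When IFNγ was added to untreated cells the balance lay the other way, with 14603 IFNγ-only and 18672 Ctrl-only regions (43.9% IFNγ-only, 43.4 to 44.4). There the IFNγ list was the shallower one, with a genome background of 9.62 against 12.1, and the part of depth in that difference was not tested.

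The one-list regions were weak and narrow in both directions. The pileup, the number of extended reads over the highest summit, had a median of 37 in Oxali + IFNγ-only regions and 34 in Oxali-only regions, against 107 and 91 in the strong regions that the other list also held. As a level, the pileup divided by the genome background of its list, this came to 2.87 and 3.02, against 8.29 and 8.07. The lowest pileup that could be called over the genome background was 22 with Oxali + IFNγ and 20 with Oxali, so a median member stood less than 2-fold above the limit. The 1000 Oxali + IFNγ-only regions just inside the q threshold had a median pileup of 27 and the 1000 just outside it 26, and for Oxali-only regions these were 26 and 24. Median widths were 185 and 172 bp, against 440 and 372 bp of regions held by both lists. A stricter q-value of at most 1e-05 was met by 53.6% of Oxali + IFNγ-only and 51.6% of Oxali-only regions, leaving 14923 and 5083.

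Regions called in one list alone were called in untreated cells less often than shared ones. To see where else they were open, they were looked up in the Ctrl, IFNγ and Cispl lists, which the choice had not used. Of the Oxali + IFNγ-only regions, 13.8% (13.4 to 14.3) were called in Ctrl, 14.9% (14.5 to 15.3) with IFNγ and 39.9% (39.4 to 40.5) with Cispl, while 52.9% (52.3 to 53.5) were called in none of the 3. Regions of the Oxali + IFNγ list that Oxali shared were called in 71.0%, 67.5% and 91.1% of cases. The weakest regions are missing from the Cispl list, whose lowest −log10 p is 2.99 and not 2.00 as in the others. Oxali-only regions were called more often in each list, in 21.7% (20.9 to 22.5) with Ctrl, 16.6% (15.8 to 17.3) with IFNγ and 52.6% (51.6 to 53.5) with Cispl. The difference, Oxali + IFNγ-only minus Oxali-only, was −7.83 percentage points in Ctrl (Newcombe interval −8.74 to −6.92) and −1.63 points in the IFNγ list (−2.49 to −0.798). Set against each other, calls with IFNγ but not in Ctrl were more common among Oxali + IFNγ-only regions (7.21% against 5.67%), and calls in Ctrl but not with IFNγ were more common among Oxali-only regions (10.8% against 6.14%). At equal ranks the calls were more frequent, at 26.9% of Oxali + IFNγ-only regions with IFNγ and 50% of Oxali-only regions in Ctrl. The IFNγ list also had the least depth, 85.4% of that of Oxali, and most one-list regions lay near the limit of calling, so an absent call there need not be an absent site.

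**Figure D1:**
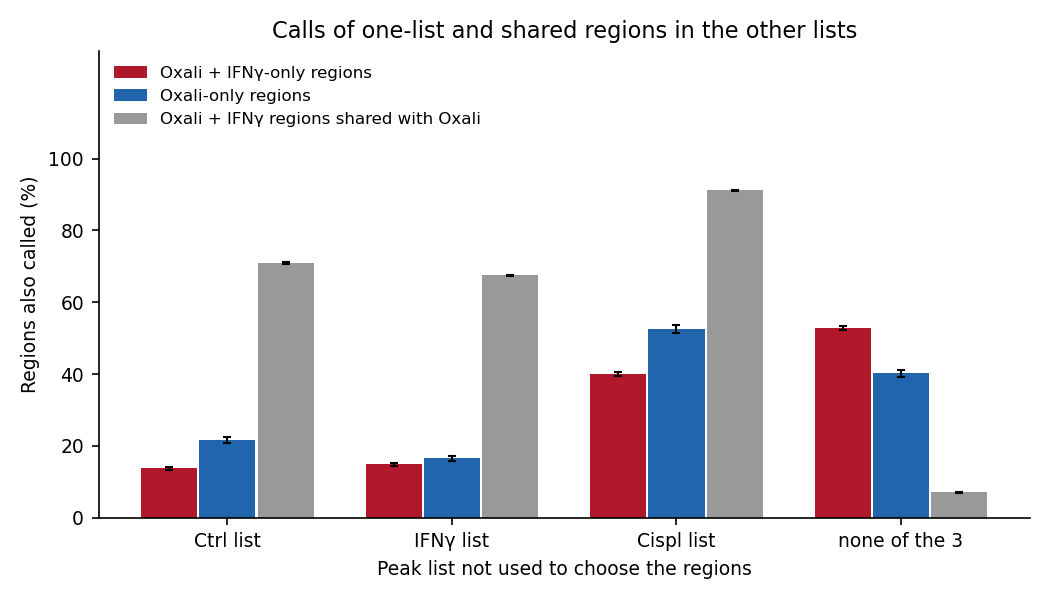
Share of regions (%) also called in each of the 3 peak lists that did not choose them, with 95% Wilson intervals, for Oxali + IFNγ-only regions, Oxali-only regions and Oxali + IFNγ regions shared with Oxali. Shared regions were called in 67.5% or more of cases in every list and one-list regions in 52.6% or less.

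Both sets of one-list regions lay mostly away from genes' starts. Start sites, taken as 1000 bp on either side of an annotated transcript start (GENCODE M21), held 11.4% (11.0 to 11.8) of the Oxali + IFNγ-only and 10.1% (9.48 to 10.7) of the Oxali-only regions, against 18.4% of the regions held by both lists. Introns held 42.1% and 45.1%, and intergenic sequence 42.8% and 41.1%. Some of the one-list regions lay close to a site of the other list, which had a region less than 500 bp away from 28.9% and 32.5% of them. A local background over 1.5 times the genome background was found at 18.1% and 16.6% of all members. Among these, 25.7% of the Oxali + IFNγ-only and 18.5% of the Oxali-only regions were at start sites, against 8.22% and 8.38% of the rest.

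The 8 Oxali + IFNγ-only regions with the best q-values were of that kind, after those within 500 bp of the other list or mostly in repeats had been set aside. The first lay between genes, 35463 bp from Foxa1 (chr12:57510574-57510745, mm10), which encodes a pioneer factor of prostate epithelium. Its level was 29.0 with Oxali + IFNγ and 18.3 with Cispl, and it was not called in Ctrl, Oxali or IFNγ. The others lay near Smad6, an inhibitor of BMP signalling, in an intron near Mmaa, near Bcl3, an NF-κB cofactor of the IκB family, at a start site by Ptms, in introns of Dpy19l1 and Hnrnpf, and near Tvp23a. Their levels ran from 8.45 at Tvp23a to 28.8 at Smad6. In 7 of the 8 the local background was over 1.5 times the genome background, up to 10.7 times, and none held an ISRE. None of the 8 was called in Ctrl, 2 were called with IFNγ and 5 with Cispl.

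The 8 leading Oxali-only regions were called almost everywhere else. Those between genes were nearest to Lasp1, Atp6v1b2, Dsg3, Grasp, Cep250 and Dhx37, and 2 lay at transcript starts, 1 within Lrmp and 1 at 52278 bp from Pim1, a kinase gene that cytokines induce. The region by Lasp1 (chr11:97797026-97797218) had levels of 32.9 with Oxali, 29.2 with Cispl, 34.5 with IFNγ and 45.6 in Ctrl. All 8 were called with Cispl, 7 in Ctrl and 5 with IFNγ, and 6 of the 8 lay over a local background above 1.5 times the genome background. These were thus sites of other groups that had no call in the Oxali + IFNγ list.

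ISRE matches were more frequent in Oxali + IFNγ-only regions than in Oxali-only regions or regions held by both lists. A match to GAAANNGAAA within 100 bp of the summit, on either strand, was found in 4.62% (4.38 to 4.88) of Oxali + IFNγ-only, 2.26% (1.98 to 2.57) of Oxali-only and 2.41% of Oxali + IFNγ regions shared with Oxali. The same window around 21401 gene start sites held one in 1.99%. The difference between the one-list sets was 2.37 percentage points (1.97 to 2.74). The reversed letters, AAAGNNAAAG, used as a control of the same composition, differed by 0.656 points (0.335 to 0.953), at 2.31% and 1.66%. At start sites alone the ISRE and this control differed alike, by 1.41 points (0.189 to 2.40) and 1.37 points (0.348 to 2.17). The start-site difference was thus not particular to the ISRE. Away from start sites the ISRE shares were 4.78% and 2.28%, and those of the control 2.28% and 1.71%. Over all regions, counting only matches outside soft-masked repeats gave ISRE shares of 2.28% (2.11 to 2.46) and 0.853% (0.690 to 1.06). Oxali + IFNγ regions shared with Oxali then had 1.21% (1.15 to 1.27). Oxali-only regions thus stood near shared regions with all matches counted and below them outside repeats. Matches also lay nearer the summit in Oxali + IFNγ-only regions, at a median of 38.5 bp against 63.5 bp. A further GAAA at the same spacing lay before or after the match in 10.6% of the Oxali + IFNγ-only and 3.60% of the Oxali-only regions with one. Longer ISREs have this form, but so do runs of short repeats, which were not left out here. The matches of the Oxali + IFNγ-only regions were mostly purine-rich: 30.3% read GAAAGAGAAA and 15.2% GAAAGGGAAA, while 11.2% read GAAAGTGAAA.

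Oxali + IFNγ-only regions with an ISRE were called even less in the lists that had not chosen them. Of these 1288 regions, 5.82% (4.67 to 7.24) were called in Ctrl, 7.07% (5.79 to 8.60) with IFNγ and 29.2% (26.8 to 31.7) with Cispl. For Oxali + IFNγ-only regions without a match these were 14.2%, 15.3% and 40.5%. Fewer calls were not particular to the ISRE. With an NF-κB match the shares were 7.12%, 10.5% and 29.3%, against 14.1%, 15.1% and 40.3% without one. With an AP-1 match, calls were fewer in Ctrl (10.6% against 14.4%) and Cispl (30.7% against 41.6%) but not with IFNγ (15.9% against 14.7%). With a RUNX match they were fewer with IFNγ (10.7% against 15.4%) but not with Cispl (41.4% against 39.8%). ISRE matches were found in 4.99% of Oxali + IFNγ-only regions over a flat background and in 2.99% of those beside stronger signal.

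Other motifs differed less, or differed with repeats. The NF-κB motif, searched under its standard consensus, was found in 2.98% (2.78 to 3.18) of Oxali + IFNγ-only and 1.64% (1.40 to 1.91) of Oxali-only regions, against 2.79% of shared regions and 3.28% of start sites. Its reversed sequence was found in 2.97% and 2.41%. AP-1 matches were found in 15.2% and 13.6% against 20.3% of shared regions and 2.93% of start sites, and CTCF matches in 1.22% and 1.87% against 4.62% and 0.369%. GAS (TTCCNGGAA), the γ-activated site, did not separate the sets at 0.679% and 0.650%, a difference of 0.0283 points (−0.172 to 0.203), with 0.849% of shared regions and 0.804% of start sites.

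RUNX matches (TGTGGTT) stood out in the other direction, at 17.1% (16.3 to 17.8) of Oxali-only and 9.40% (9.06 to 9.75) of Oxali + IFNγ-only regions, against 10.5% of shared regions and 3.09% of start sites. This excess lay in repeats. Outside soft-masked sequence the order turned, with 4.40% (4.01 to 4.82) of Oxali-only and 5.09% (4.84 to 5.36) of Oxali + IFNγ-only regions. One 15-base stretch, shown with the RUNX letters in capitals because it makes up much of the signal, was present in 863 of the 1680 Oxali-only regions with a match and in 646 of the 2618 Oxali + IFNγ-only regions.
Repeated stretch: accaTGTGGTTgctg
Oxali-only regions as a whole were more often mostly masked, in 32.2% of cases against 17.8% of Oxali + IFNγ-only and 13.2% of shared regions.

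At the 139450 regions that both lists held, levels were close. The median log2 ratio of the Oxali + IFNγ level over the Oxali level was −0.00756, and the middle of the distribution ran from −0.223 to 0.205 (quartiles). At least 1.5-fold higher with Oxali + IFNγ were 5593 regions (4.01%), and at least 1.5-fold lower were 6324 (4.53%). Scaled by the local background of each summit the order turned, with 4602 higher and 3556 lower. Past 2-fold there were 394 and 373. The regions that were higher and those that were lower were of different kinds. The higher ones were mostly weak sites away from start sites, with a median Oxali level of 3.37 in the 1.5- to 2-fold class and 2.66 past 2-fold. The lower ones had a median Oxali level of 27.0, and 52.6% of them lay at start sites. The Oxali level also enters the ratio, which by construction widens this gap. With Oxali + IFNγ the median levels were 5.50 and 5.97 in the 2 higher classes and 16.3 in the lower one. The higher ones were thus weaker in both lists, by less in Oxali + IFNγ.

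The share of regions with an ISRE was greater in each class of greater ratio. It was 1.20% (0.961 to 1.50) in regions at least 1.5-fold lower, 2.04% (1.90 to 2.19) in regions within 0.1 of no difference on the log2 scale, 6.77% (6.12 to 7.49) in regions 1.5- to 2-fold higher and 19.3% (15.7 to 23.5) in regions at least 2-fold higher. The reversed element moved from 0.917% to 3.05% over the same classes. Outside soft-masked sequence the ISRE shares were 0.443% in the lower, 3.96% in the 1.5- to 2-fold and 14.5% in the 2-fold higher class, against 1.21% of all shared regions. NF-κB matches ran from 2.64% in the lower class to 4.06% in the 2-fold class and GAS matches from 0.633% to 1.52%, on only 6 regions. Read the other way, of 3370 shared regions with an ISRE 12.7% were at least 1.5-fold higher and 2.26% lower, against 3.80% and 4.59% of regions without one. At start sites the split was 10.6% against 1.74% higher. In the regions at least 1.5-fold higher the ISRE lay at a median of 29.5 bp from the summit, against 51.5 bp over all shared regions with a match, and GAAAGTGAAA made up 25.4% of the matches (22.0 to 29.1).

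**Figure D2:**
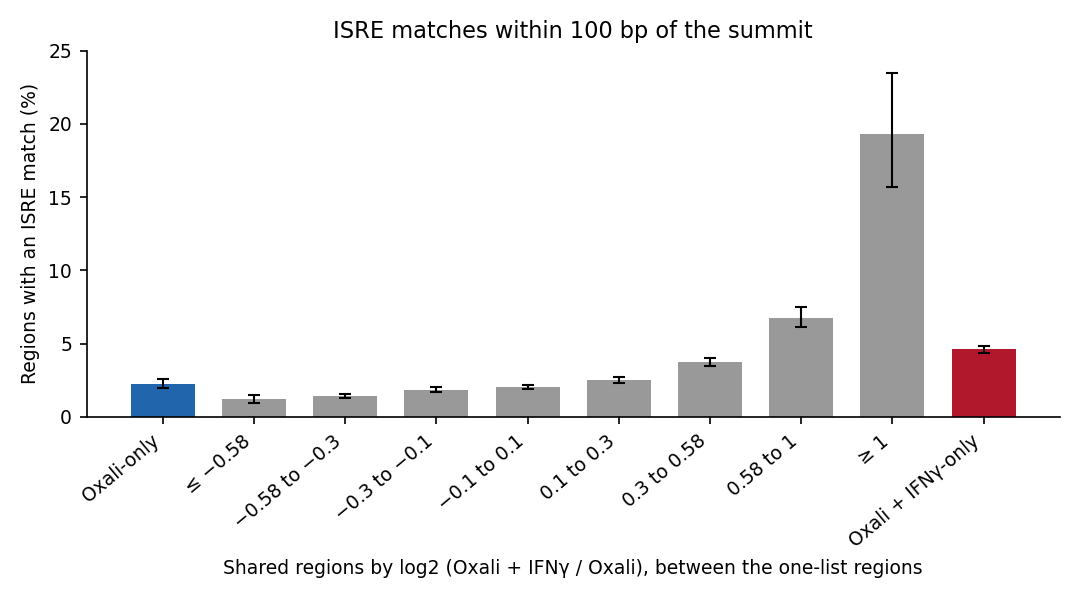
Share of regions (%) with an ISRE match within 100 bp of the summit, with 95% Wilson intervals, for Oxali-only regions (left bar), shared regions by log2 ratio of level (grey bars) and Oxali + IFNγ-only regions (right bar). The share goes from 1.20% in the lowest class to 19.3% in the highest, while the one-list regions stand at 2.26% and 4.62%.

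Of the 8 shared regions whose ratio lay farthest above 1, given the counting interval, 5 held an ISRE (sequences above). The first lay in an intron of Drosha, the nuclease that starts microRNA processing (chr15:12856769-12857373). Its level went from 3.46 with Oxali to 11.2 with Oxali + IFNγ and was 7.41 with Cispl, a log2 ratio of 1.70 (interval of the ratio 2.27 to 4.75), with no call in Ctrl or IFNγ. The region in Lrrc49 (chr9:60664648-60665462) had levels of 13.9 with Oxali + IFNγ, 5.15 with Oxali, 6.68 with Cispl, 2.81 with IFNγ and 2.39 in Ctrl. It was thus lowest in the groups without platinum and highest with the combination. At the start site of Inpp1, an inositol phosphatase gene (chr1:52799199-52800099), the level was 13.4 with Oxali + IFNγ against 4.97 with Oxali, 7.05 with Cispl and 4.16 with IFNγ, a log2 ratio of 1.43 (1.99 to 3.72). The regions by Ctso, a lysosomal protease gene, and Tbl1xr1 had log2 ratios of 1.58 and 1.68. Those without an ISRE lay near Bmper (1.55), in an intron of Ick (1.58) and 3′ of Irf1 (1.72). Beyond these 8, and picked for their function after the values were seen, ISRE-bearing regions in introns of Trim26, Trim69 and Ifi47 and 10749 bp from Irf4 had log2 ratios of 1.41, 1.28, 1.13 and 1.26.

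Where they could be compared, sites that were higher with the combination stood close to Ctrl with IFNγ alone, with or without an ISRE. In libraries that the choice had not used, the IFNγ level was set over the Ctrl level at the regions called in all 4 lists. Of the 428 regions with an ISRE that were at least 1.5-fold higher with the combination, 125 could be compared, and there the median log2 ratio of IFNγ over Ctrl was 0.0204, with 6.40% at least 1.5-fold higher and 6.40% lower. At 1950 such regions without an ISRE it was 0.0416, with 12% higher and 7.49% lower. Over all 87795 shared regions called in the 4 lists it was −0.242, with 3.90% higher and 19.1% lower. The rest had no call in Ctrl, IFNγ or both.

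Levels at strong start sites tended to be lower with Oxali + IFNγ. At 25711 shared start-site regions the median log2 ratio was −0.195, with 12.9% at least 1.5-fold lower and 1.91% higher, against a median of 0.0241 at 113739 regions elsewhere. The difference widened with the level. Below an Oxali level of 2.5 start-site and other regions had medians of 0.290 and 0.314, at levels of 10 to 20 of −0.0333 and 0.00185, and at 80 or more of −0.483 and −0.189. The classes use the Oxali pileup that also enters the ratio, so by construction the weakest class tilts upward, at start sites and elsewhere alike. GC content moved with the difference, since start-site regions of 65% GC or more had a median of −0.471 and those of 45% to 55% GC one of −0.0262. At levels of 40 to 80, regions of 65% GC or more away from start sites also stood at −0.282. Scaled by the local background of each summit, the gap between start-site and other regions shrank from −0.219 to −0.0943. The part of GC content, library and local background in this difference was not tested.

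**Figure D3:**
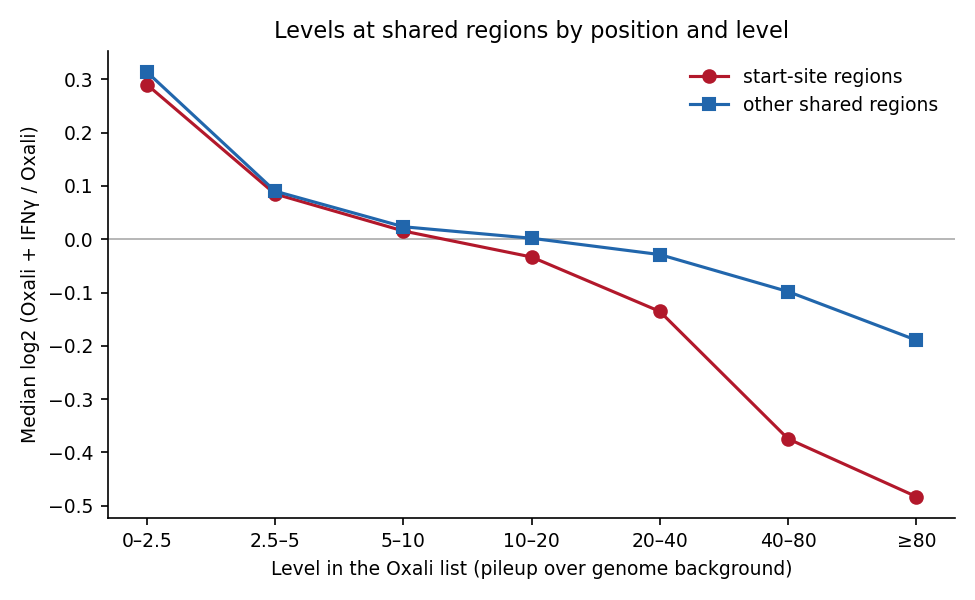
Median log2 ratio of level, Oxali + IFNγ over Oxali, by level in the Oxali list, for shared start-site regions (circles) and other shared regions (squares). Both lie near 0.3 in the weakest class, and start-site regions are at −0.483 and other regions at −0.189 in the strongest.

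Most of these start sites were also lower when IFNγ was given alone. Of the 3144 start-site regions at least 1.5-fold lower with the combination than with Oxali and called in all 4 lists, 82.1% were also at least 1.5-fold lower with IFNγ than in Ctrl, against 31.2% of all start-site regions. That 31.2% includes weak start sites, and no share at like level was computed. Taken at each gene's start-site region with the most reads, 5538 of 12804 genes were lower with IFNγ than in Ctrl. All 8 shared regions with the ratio farthest below 1 lay at start sites: those of Marf1, Maz, Scaf1, Fam210b, Eapp, 2410002F23Rik, 4933434E20Rik and Dazap2. Maz encodes a zinc finger factor that binds GC-rich promoters. The Marf1 region (chr16:14158870-14159707) had a level of 31.0 with Oxali + IFNγ, 48.1 with IFNγ, 71.3 with Cispl, 90.5 with Oxali and 164 in Ctrl, a log2 ratio of −1.55 (0.304 to 0.385). It was highest in untreated cells, lower with each agent and lowest with both. The Maz region (chr7:127025061-127027747) had the same order of groups, at 44.4 with Oxali + IFNγ, 55.4 with IFNγ, 102 with Cispl, 125 with Oxali and 162 in Ctrl. The other 6 had log2 ratios from −1.33 to −1.44. Standing highest in Ctrl and lowest with both agents was not particular to Marf1 and Maz. Start sites of Jak2, Canx and Pdia3 did so too, while that of B2m was lowest with Oxali.

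Few genes were higher at their start. Of 13759 protein-coding genes with a shared start-site region, 146 (1.06%) were at least 1.5-fold higher with Oxali + IFNγ and 3096 (22.5%) lower, with a median log2 ratio of −0.384. A gene's value was taken at its start-site region with the most reads, so several genes can share one region, and the 146 genes had 143. An ISRE lay in the region of 17.1% (11.9 to 24.1) of the higher genes, 0.646% (0.419 to 0.996) of the lower and 1.49% of all. The higher genes had low levels, with medians of 3.77 with Oxali and 6.70 with Oxali + IFNγ. For the lower ones these were 83.1 and 49.3.

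The higher group held some genes known to answer interferon, named here after their values were seen. Rtp4, an interferon-induced chaperone of receptors, had levels of 12.1 with Oxali + IFNγ, 4.88 with Oxali, 4.94 with Cispl, 4.05 with IFNγ and 2.97 in Ctrl, a log2 ratio of 1.31 (ratio 1.81 to 3.43), and 4 ISRE matches. Tgtp1, a GTPase of the immunity-related family, had 21.4, 11.4, 14.6, 4.57 and 5.27 in the same order (log2 0.90, ratio 1.51 to 2.32). Oasl2, of the oligoadenylate synthetase family of antiviral enzymes, had 20.8, 11.98, 11.3, 7.48 and 7.41 (log2 0.80). In all 3 the combination stood highest, and at Tgtp1 and Oasl2 IFNγ alone lay near Ctrl or below it. The higher group also held Tnfrsf14, a receptor of the TNF family with checkpoint ligands (0.77), Il18bp, a secreted inhibitor of interleukin 18 (0.88), Slamf8 (1.05), the antiviral helicase gene Ddx60 (0.78) and Nod2, a sensor of bacterial wall peptides (0.85). Genes not picked for such a role had ratios above all of these but Rtp4, such as Cysltr2 (1.15), Tff1 (1.16) and Alpl (1.17). Only 10 of the 146 belonged to the gene lists described next.

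The gene lists were grouped by role in the pathway, and a median is given beside that of all 13759 genes, −0.384. Of all 21911 protein-coding genes, 40.6% had an Oxali + IFNγ-only region in the gene or within 5 kb and 20.8% an Oxali-only region, and a longer gene has more room for one. At a start site, 9.58% of all genes had an Oxali + IFNγ-only region and 3% an Oxali-only one. Against these shares, the counts were 8 and 1 of 19 GTPase genes, 12 and 6 of 33 antiviral genes, 5 and 6 of 19 chemokine and checkpoint genes, 10 and 2 of 18 NF-κB genes, 12 and 4 of 23 p53 genes and 6 and 3 of 20 proteasome genes.

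The receptors, transducers and factors of the pathway stood near the other start sites. Over 26 receptor, JAK-STAT and IRF genes the median was −0.353, with 0 at least 1.5-fold higher and 4 lower. The 4 were Pias1 (−0.91), an inhibitor of the pathway, the phosphatase genes Ptpn1 (−0.67) and Ptpn2 (−0.60), which act on JAKs and STATs, and Jak2 (−0.60). The highest were Irf5 (0.58) and Irf8 (0.56), neither of them past 1.5-fold. An Oxali + IFNγ-only region lay at or near 16 of the 26 genes (61.5%, against 40.6% of all genes). Ptpn1 and Irf3 had one at a start site, while Irf7 and Tyk2 had an Oxali-only region at a start site. The receptor gene Ifngr2 stood at −0.37.

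The GTPase genes were the list farthest above the rest. All 16 interferon-induced GTPase genes with a shared start-site region, which code for guanylate-binding proteins, immunity-related GTPases and Mx proteins, lay above the median of all genes, at a list median of 0.298. Their median Oxali level was 19.5, below the 64.8 of all genes, and start sites of low level had greater ratios. Set against the median of start-site regions in its own level class, 15 of the 16 genes still lay above, by a median of 0.426. Tgtp1 (0.90), Gbp6 (0.89), Mx1 (0.77) and Iigp1 (0.62) were at least 1.5-fold higher and none was lower. Gbp11 followed at 0.40, and the lowest was Gbp5 at −0.25. Gbp6 had levels of 21.8 with Oxali + IFNγ, 11.7 with Oxali, 8.50 with Cispl, 4.99 with IFNγ and 5.35 in Ctrl. Gbp4 and Gbp8 share 1 region (0.39), and the family holds near copies whose reads may be split. Start sites of Gbp8, Iigp1 and Tgtp2 had an Oxali + IFNγ-only region. In the libraries without platinum the 15 genes called in all 4 lists had a median of −0.101 for IFNγ over Ctrl, against 0.287 for the combination over Oxali, and the combination value was the greater in 14 of 15. Over all 12804 genes that could be compared these medians were −0.543 and −0.405, and the combination value was the greater in 9567.

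The MHC class II genes came next, with a median of 0.238 over 9 genes, of which 6 lay above the start-site median of their level class, by a list median of 0.222. Ciita, the master activator of class II genes (0.64), and H2-Eb1, a class II β chain (0.63), were at least 1.5-fold higher. H2-Ob (0.52), H2-DMb1 (0.50) and H2-DMa (−0.48) did not pass 1.5-fold. Ciita held 5 Oxali + IFNγ-only regions. Of the 11 genes, 5 had one (45.5%), near the 40.6% of all genes. An Oxali-only region was found at 0 of the 11, against 20.8% of all genes.

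Antiviral genes and chemokines split around no difference, and 25 of 29 and 12 of 12 lay above the start-site median of their level class. Over 29 antiviral genes the median was −0.00355, with 3 higher and 0 lower: Ifitm3 (0.85), which blocks the entry of viruses, Oasl2 (0.80) and Oas1a (0.79). Samhd1 (−0.52) and Trim25 (−0.46) lay lowest. Oas2, Oas1a, Oasl1, Ifi47 and the nucleic acid sensor gene Zbp1 had an Oxali + IFNγ-only region at a start site, while Oasl1, Helz2 and Ifitm2 had an Oxali-only one. The Oas2 region (chr5:120749752-120750068, level 4.03) was called in no other list, and the stronger Apol7e region (chr15:77698545-77699184, level 6.90) had a call with Cispl as well, at 2.54. Over 12 chemokine and checkpoint genes the median was −0.00404. Tnfrsf14 (0.77) and Cxcl11, a T cell chemokine (0.71), were at least 1.5-fold higher and none was lower. Icam1 stood at 0.43, Cd274 at 0.30 and Cd47 at −0.37, and Cxcl10 had an Oxali + IFNγ-only region at a start site.

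Class I antigen presentation genes were mixed. Of 21 genes, 9 lay above the start-site median of their level class, and the list differed from it by a median of −0.0215. The median log2 ratio of the 21 was −0.235, with 0 higher and 3 lower by 1.5-fold. The lower ones were the chaperone genes Canx (−0.61), Pdia3 (−0.61) and Calr (−0.60). Psmb9 and Tap1, which share a start-site region, stood at −0.58, while Tapbpl (0.43), H2-Q4 (0.38) and B2m (0.33) were highest. Class I genes of the H2 group are near copies of each other and differ between strains, so their reads may be misplaced. An Oxali + IFNγ-only region was found at 4 of the 21 (19.0%, against 40.6% of all genes), in Tapbp at a start site. The genes of this list are short, with a median length of 5.4 kb against 17.4 kb for all genes. H2-T23 had an Oxali-only region at a start site.

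The lists of other pathways lay below the median of all genes, except the NF-κB list. From the start-site medians of their level classes they differed by a median of −0.0330 for the proteasome, −0.102 for AP-1, −0.0366 for p53 and 0.0147 for NF-κB genes. Constitutive proteasome genes had a median of −0.465 with 7 of 20 lower, led by Psmb6 (−1.20), Psma1 (−1.02), Psmb7 (−0.95), Psmc5 (−0.78) and Psmc6 (−0.70). AP-1 genes had −0.525 with 5 of 13 lower, namely Batf (−0.88), Jund (−0.83), Fosb (−0.72), Mafk (−0.66) and Batf2 (−0.60). The p53 list, which holds targets of oxaliplatin's damage response, had −0.411 with 6 of 22 lower: Ddb2 (−0.93) and Xpc (−0.86), which recognise damaged DNA, Btg2 (−0.76), Ei24 (−0.71), Bax (−0.64) and Sesn1 (−0.59). The NF-κB list had −0.264 with 3 of 17 lower, Bcl3 (−0.89), Nfkbiz (−0.70) and Relb (−0.60), while Tnip1 stood at −0.58 and Nfkbib at −0.47. In none of these 4 lists was a gene at least 1.5-fold higher. Start sites with an Oxali + IFNγ-only region were found all the same, at Ddb2, Ei24, Rrm2b and Plk2 of the p53 list, Nfkbiz and Nfkbib of the NF-κB list, Psmc2 and Psma6 of the proteasome and Maff of AP-1. Junb and Nfkb1 had an Oxali-only one.

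**Figure D4:**
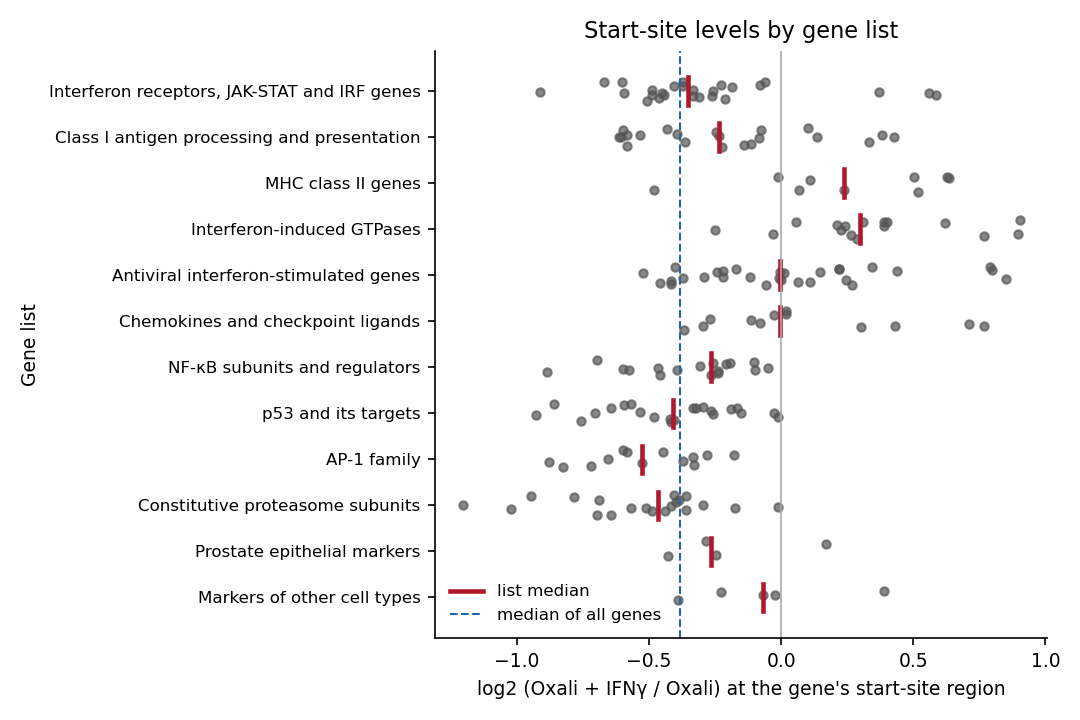
Log2 ratio of level, Oxali + IFNγ over Oxali, at the start-site region of each gene (points) in 12 gene lists, with the list median (red bar) and the median of all 13759 genes (dashed line, −0.384). All 16 GTPase genes lie above the dashed line, and no point of the NF-κB, p53, AP-1 or proteasome lists reaches 0.

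At Irf1 the start site and the regions 3′ of it differed in direction. Irf1, a factor that binds ISREs, had a start-site region (chr11:53768776-53770833) with levels of 104 with Oxali and 80.5 with Oxali + IFNγ, a log2 ratio of −0.37. From an exon near its 3′ end onward lay 4 regions that were higher with the combination, at log2 ratios of 1.18, 1.37, 1.33 and 1.72. The exonic one (chr11:53777617-53777877) held a GAS match and went from 3.46 to 7.83. The last one (chr11:53779894-53780519) had levels of 6.43 with Oxali + IFNγ, 1.95 with Oxali, 2.47 with Cispl, 3.43 with IFNγ and 4.20 in Ctrl. It was lowest with Oxali, so there the combination stood above untreated cells by less than above Oxali.

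Nlrc5 encodes the activator of class I genes, and its start-site region at the first exon (chr8:94433601-94434720) holds an ISRE. Its levels were 16.0 with Oxali + IFNγ, 9.40 with Oxali, 9.95 with Cispl, 7.59 with IFNγ and 7.33 in Ctrl, a log2 ratio of 0.76 (ratio 1.34 to 2.17). An intronic region with an NF-κB match (chr8:94442859-94444271) went from 4.08 with Oxali to 10.0 with Oxali + IFNγ (log2 1.29), with 2.98 in Cispl and no call in Ctrl or IFNγ. The gene also held 5 Oxali + IFNγ-only regions and 0 Oxali-only ones. Its strongest start-site region, at another transcript start (chr8:94524312-94525302), stood at −0.24 and is the one the class I list counts. Among regions held by both lists, those at least 1.5-fold higher at Nlrc5 were thus at its 5′ end. Regions with no Oxali call lay further in, 10859 to 73770 bp from the gene start, at levels of 2.09 to 3.18.

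**Figure D5:**
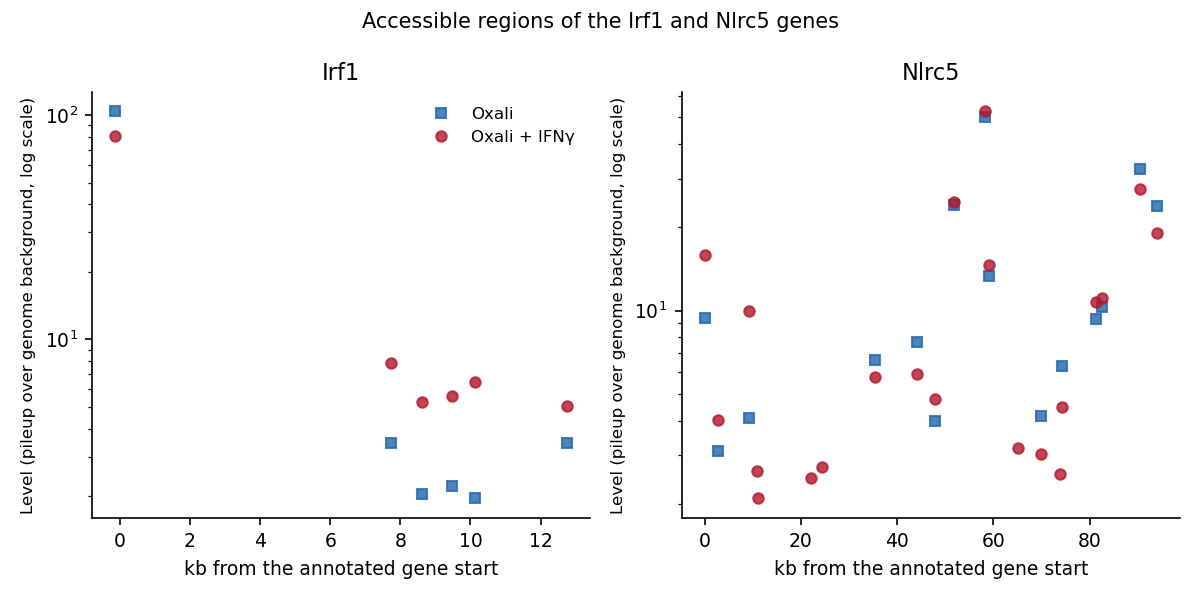
Level (pileup over genome background, log axis) of each region with Oxali (squares) and Oxali + IFNγ (circles) by distance in kb from the annotated start of Irf1 and of Nlrc5, with a lone circle where the Oxali list had no call. The first region of Irf1 stands below its Oxali level with the combination and the 3′ regions above it, while the first region of Nlrc5 goes from 9.40 to 16.0.

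Cd274, which codes for the checkpoint ligand PD-L1, had an ISRE in an intronic region (chr19:29371691-29372741) with levels of 9.22 with Oxali + IFNγ, 4.35 with Oxali, 5.30 with Cispl, 2.91 with IFNγ and 2.64 in Ctrl, a log2 ratio of 1.08 (ratio 1.51 to 3.02). Its start-site region, which also holds an ISRE, went from 12.95 to 16.0, where the interval of the ratio reached 0.992. One intronic region (chr19:29368990-29369176) was Oxali-only.

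In the Psmb9, Tap1, Psmb8 and Tap2 cluster, which supplies peptides to class I molecules, a region at the annotated start of Tap2 (chr17:34203032-34203796) stood highest with the combination. Its levels were 10.0 with Oxali + IFNγ, 4.08 with Oxali, 3.63 with Cispl, 5.51 with IFNγ and 3.71 in Ctrl, a log2 ratio of 1.29 (ratio 1.74 to 3.51). The neighbouring start-site regions did not follow it, at −0.58 for Tap1 and Psmb9, −0.08 for Psmb8 and −0.43 for a stronger region at a further Tap2 start, which holds an ISRE and is the one the class I list counts. B2m, the light chain of class I molecules, had an ISRE and an NF-κB match in its start-site region (chr2:122147233-122148430), whose levels were 67.9 with Oxali + IFNγ, 53.9 with Oxali, 58.2 with Cispl, 77.8 with IFNγ and 100.5 in Ctrl. It was highest in untreated cells, and the combination stood between Oxali and IFNγ (log2 0.33 over Oxali, ratio 1.13 to 1.40). Being highest in untreated cells was not particular to B2m. Start sites of Stat3, Psme2 and Canx were so too, while those of Irgm1 and Mx2 were not.

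Ifngr2 stood at −0.37 at its start (ratio 0.600 to 0.992) and at 0.57 at another start within the gene (1.12 to 1.97), neither past 1.5-fold. Nfkb1 had values on both sides, from −0.60 to 0.28, and 1 Oxali-only region at a start site.

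Start-site regions of cell type markers did not by themselves identify the cells. Of 8 markers of prostate epithelium, 4 had a shared start-site region, at levels of 56.5 to 1922 with Oxali + IFNγ and 53.7 to 2283 with Oxali. Another 2 had no shared region. Foxa1 had a start-site level of 93.7 with Oxali and 76.9 with Oxali + IFNγ, Hoxb13 levels of 76.0 and 56.5, and Krt8 levels of 53.7 and 60.3. Krt18 had no shared region and an Oxali-only region at a start site. Of 10 markers of white blood cells, endothelium and fibroblasts, 5 had a shared start-site region, at levels of 2.79 to 86.5 with Oxali + IFNγ and 2.93 to 101 with Oxali. Log2 ratios were −0.39 at Col1a1, −0.23 at Pdgfra, −0.07 at Ptprc and −0.02 at Cd68, and the part of such cells in the results above was not tested.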

How the data were processed

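ATAC-seq had been done on 10 libraries of Myc-CaP cells, 2 in each of 5 groups, and nothing in the labels says whether the libraries of a group came from separate cultures. The authors trimmed reads with cutadapt, aligned them to mm10 with Bowtie2 (version 2.2.8 per the labels), kept properly paired reads of high mapping quality with SAMtools, took out duplicate and mitochondrial reads, merged both libraries of each group, and ran MACS2 2.1.0 without a control (p of at most 0.01, reads extended to 150 bases) to call peaks before leaving out blacklisted regions. The study's own tests, made with DESeq2 on counts per library, were not used here. In the deposited peak lists each summit has a fold enrichment, the ratio of pileup to local background with 1 added to each, computed by the authors with MACS2. The deposited −log10 p-value comes from the Poisson probability of that pileup, and the deposited −log10 q-value from its adjustment by MACS2. The deposited score is a rescaled −log10 p and was not used further. The total counts per library were not analysed here.

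From fold and p, the whole-number pileup and local background of each summit were solved (at least 99.9% of summits in each list). The lowest local background of a list was taken as its genome background, which scales with depth, and levels are pileup over it. Summits of one interval were merged to 1 region. Strong regions had a q-value of 0.01 or less, overlap meant at least 1 shared base, and higher or lower meant a ratio of at least 1.5. Both strands of mm10 were searched for motifs up to 100 bp from each summit, and reversed matches that overlap forward ones were not counted. Shares have Wilson intervals, differences of shares Newcombe intervals and ratios of pileups exact binomial intervals, all at 95% and for counting error only, since reads are not independent cells. A region was given the protein-coding gene of GENCODE M21 that holds its summit or else has the nearest start.

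The named regions are the 8 with the best q-value in each one-list set, leaving out those within 500 bp of the other list or mostly masked, and the 8 shared, mostly unmasked regions whose interval of the ratio lies farthest from 1 in each direction. Named list genes are up to 5 per list with the widest log2 ratio and those with a one-list region at a start site. The loci described whatever their values are Nlrc5, Irf1, Cd274, Tap1, Psmb8, Psmb9, Tap2, B2m, Ifngr2 and Nfkb1, and other genes were named after their values were seen. Some genes of the lists are not reported here. The regions compared, gene lists and motifs were chosen with earlier results of these data known. Python 3.11.15, numpy 2.4.6, pandas 2.3.3, scipy 1.17.1 and matplotlib 3.10.9 were used, and the scripts were tested on simulated data.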

Additional observations from a re-analysis of the deposited data

Results flagged for a closer look

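IFNγ went with different results in platinum-treated and in untreated cells, in 2 measures. The share of one-list regions found with IFNγ was 73.9% when it was added to oxaliplatin and 43.9% when it was added to untreated cells. At start sites of the 15 interferon-induced GTPase genes called in all 4 lists, the median log2 ratio was 0.29 with IFNγ added to oxaliplatin. It was −0.10 with IFNγ added to untreated cells. Over all 12804 genes that could be compared these medians were −0.405 and −0.543. The GTPase genes thus lay above all genes in both contrasts. The contrasts share no library. With 1 pooled list per group, the difference was not tested in either measure, and the depth of the lists, which differs in opposite directions in the contrasts, cannot be told apart from the treatment.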

How the results depend on the processing

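No paired analysis was possible because each peak list was called on both libraries of its group together, and for the same reason no library could be left out in turn. Oxali + IFNγ-only regions outnumbered Oxali-only regions under every alternative run for that share, and their ISRE share stayed the greater. With a q-value of at most 1e-05 there were 14923 and 5083 regions, 74.6% of them Oxali + IFNγ-only. Of the Oxali + IFNγ-only ones, 12.9% were at start sites, 17.3% were called with IFNγ, 15.9% in Ctrl and 5.42% had an ISRE, and of the Oxali-only ones 18.9% were called with IFNγ, 27.1% in Ctrl and 20.03% had a RUNX match. With all deposited regions the share was 73.2%, Oxali + IFNγ-only calls were 14.5% with IFNγ and 13.4% in Ctrl, and Oxali-only regions had 20.5% called in Ctrl and 16.04% with RUNX. At matched depth the share was 71.8%, with 14.3% of Oxali + IFNγ-only regions called in Ctrl. At equal ranks 1219 and 662 regions were left, a share of 64.8%. There, Oxali + IFNγ-only against Oxali-only values were 22.6% and 17.4% at start sites, 26.9% and 33.8% called with IFNγ, 21.6% and 50% called in Ctrl, 8.78% and 2.72% with an ISRE, and 8.37% and 19.3% with RUNX. Without regions within 500 bp of the other list the share was 74.9%, with 8.39% and 8.05% at start sites, 13.3% and 14.3% called with IFNγ, 10.3% and 19.2% with RUNX, and an ISRE in 5.03% of Oxali + IFNγ-only regions. With matches counted only within 50 bp of the summit, ISRE shares were 2.64% and 0.701% and RUNX shares 5.90% and 12.4%. Of the alternatives chosen after seeing the data, leaving out soft-masked matches gave 2.28% and 0.853% for the ISRE and 5.09% and 4.40% for RUNX, which turned the order of RUNX, and keeping to a local background near that of the genome gave an ISRE in 4.99% of Oxali + IFNγ-only regions.

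At shared regions, scaling by the median ratio turned the sign of the median log2 ratio, to 0.0032, and gave −0.184 at start sites. Scaling by the local background left 4602 higher and 3556 lower regions, which turned their order, with a median of −0.0299, −0.106 at start sites and a difference between start-site and other regions of −0.0943. With a q-value of at most 1e-05 in both lists 3459 regions were higher and 5415 lower, and the medians were −0.0201, −0.214 at start sites and −0.228 for the difference. Past 2-fold, 394 regions were higher and 373 lower. For these results the cause was not tested, beyond fewer regions being left under stricter settings. Depth limits the one-list sets, since a pileup of 22 or 20 was the lowest that could be called, so the absence of a call is not the absence of open chromatin.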
